A study of Mus musculus with 10 samples.

Results

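The mitochondrial 12S-rRNA and 16S-rRNA and the 3 mitochondrial tRNAs beside them, mt_tRNA-Phe-GAA, mt_tRNA-Val-TAC and mt_tRNA-Leu-TAA, were followed in the small RNA of mouse sperm. They were taken by name: the 2 rRNAs are 1 feature each, and each tRNA is 4 features, its 5′ end, 3′ end, CCA end and internal reads (all reads of the tRNA that are listed under no end). This gives 14 of the 1470 features counted in the series, and 5 of the 24 mitochondrial tRNAs and rRNAs that are listed by name. The CD-F0 group (n = 5) held C57BL/6J males on a control diet with 10% of kcal from fat, and the HFD-F0 group (n = 5) males of the same strain on a diet with 42%. Both groups were assigned to their diets at 4 weeks of age and fed for 10 weeks, and mature sperm came from the tail of the epididymis and the vas deferens. The labels name no genetic change and no other treatment. Whether 1 sample is 1 mouse or a pool is not stated, so p-values measure only the spread between these samples. In bulk RNA, fewer cells of a kind and less RNA per cell cannot be told apart.

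The mitochondrial genome is a small circle that is copied into long transcripts holding many genes. In these transcripts tRNAs stand between the longer genes, and enzymes that cut at both ends of each tRNA free the rRNAs and mRNAs. The rRNAs form the small (12S) and the large (16S) subunit of the mitochondrial ribosome, and the tRNAs carry phenylalanine, valine and leucine to it. In sperm, mitochondria are wrapped around the midpiece of the tail. The libraries were made from RNA cut from a gel at 18 to 30 nt, so every value below counts fragments and not the whole RNA. The cut is not exact, as the paper also names sperm tRNA fragments of more than 30 nt.

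In the GENCODE annotation of the mouse (GRCm38), the 5 genes follow each other on the plus strand of chromosome M. mt-Tf, the gene of mt_tRNA-Phe-GAA, covers positions 1 to 68, and mt-Rnr1, the gene of 12S-rRNA, covers 70 to 1024, after a gap of 1 base. mt-Tv (mt_tRNA-Val-TAC) covers 1025 to 1093, mt-Rnr2 (16S-rRNA) covers 1094 to 2675 and mt-Tl1 (mt_tRNA-Leu-TAA) covers 2676 to 2750, with 0 bases between these neighbours. The genes have no introns, and each is annotated as non-coding RNA along its whole length. The tRNA genes are shown because the shares of reads from their 5′ ends and inner parts differed from tRNA to tRNA. They are written 5′ to 3′ in DNA letters, with the anticodon in capitals.
mt_tRNA-Phe-GAA: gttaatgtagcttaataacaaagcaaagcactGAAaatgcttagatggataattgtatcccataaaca
mt_tRNA-Val-TAC: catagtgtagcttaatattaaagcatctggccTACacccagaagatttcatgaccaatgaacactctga
mt_tRNA-Leu-TAA: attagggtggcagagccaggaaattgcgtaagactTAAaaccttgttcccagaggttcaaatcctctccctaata

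The tRNAs are 68, 69 and 75 bases long, and their GC content is 30.9%, 39.1% and 44%. The anticodon begins at base 33 in mt_tRNA-Phe-GAA and mt_tRNA-Val-TAC and at base 36 in mt_tRNA-Leu-TAA. A fragment from the first base up to the anticodon would thus have 32, 32 or 35 bases, which is above the 30 nt edge of the gel cut. Whether such fragments were among the reads was not tested. The rRNA genes are 955 and 1582 bases long, with a GC content of 35.8% and 35.4%. mt_tRNA-Phe-GAA and mt_tRNA-Val-TAC share the run tgtagcttaata, 12 bases that start at base 6 of both.

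The aligner was allowed 1 mismatch, so windows of 18 bases, the shortest RNA cut from the gel, were compared between the genes. Shorter reads, if any were kept, are not covered. Of 115 pairs of a member with another mitochondrial tRNA or rRNA gene, 1 had a window within that limit. This was mt_tRNA-Leu-TAA with mt-Ty, the gene of the tyrosine tRNA, and the capital marks the base that differs.
mt_tRNA-Leu-TAA, bases 50 to 67: cagaggttCaaatcctct
mt-Ty, bases 42 to 59: cagaggttTaaatcctct
The window lies in the 3′ portion of both, outside the 5′ ends that make up most mt_tRNA-Leu-TAA reads. The closest windows of mt_tRNA-Phe-GAA and mt_tRNA-Val-TAC, with each other, differed at 2 bases, those of 16S-rRNA at 3 and those of 12S-rRNA at 4. A read that itself differed at 1 base from each of these tRNAs could still fit both. The nuclear genome was not compared.

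Each CD-F0 library had 30431401 to 31586854 clean reads and each HFD-F0 library 29558751 to 32178088. Of these, 64.9% to 75.2% matched the genome in CD-F0 and 73.3% to 74.7% in HFD-F0, and CD-F0 replicates 1, 4 and 5 lay under 70%. Values without these 3 libraries, a check added after the data were seen, are given beside the results that they move. They compare all HFD-F0 samples with CD-F0 replicates 2 and 3 only. miRNAs that mark sperm and testis (miR-34b, miR-34c and the miR-449 family) were all detected, 5 of 5, in every sample. Their summed level was 10478 to 12648 RPM (reads per 1000000 clean reads) in CD-F0 and 7275 to 15064 in HFD-F0. All 6 epithelial miRNAs of the list (the miR-200 family and miR-205) were also detected in every sample, at 3969 to 6756 RPM in CD-F0 and 5520 to 9463 in HFD-F0. All 5 muscle miRNAs summed to 21354 to 29615 and 15882 to 36728 RPM. Of the 6 blood and immune miRNAs, 5 were listed under the names used, at 1386 to 2449 and 1310 to 3005 RPM. None of these sums differed beyond the spread between samples (exact permutation tests, smallest p = 0.167, for the epithelial miRNAs, n = 5 per group), and their part in the results was not tested.

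Per base of gene, fragments listed under 16S-rRNA were the most frequent of the 5 RNAs and those of mt_tRNA-Phe-GAA the least. Reads under a further class, Ensembl Mt_rRNA, are not in this order. They averaged 4342 RPM in CD-F0 and 5694 in HFD-F0, against 1110 and 1142 RPM for 12S-rRNA. Which rRNA they come from is not given, so the places of 12S-rRNA and 16S-rRNA hold only for reads listed by name. Over the 10 samples, the level per 100 bases was 540 RPM ± 82.4 (SD) for 16S-rRNA, 212 ± 137 for mt_tRNA-Leu-TAA and 187 ± 31.98 for mt_tRNA-Val-TAC. It was 118 ± 18.4 for 12S-rRNA and 15.7 ± 5.96 for mt_tRNA-Phe-GAA. This order held in 10 of 10 samples for every pair of neighbours except mt_tRNA-Leu-TAA and mt_tRNA-Val-TAC. Leucine tRNA was above valine tRNA in 4 of 10 samples only, 1 from CD-F0 and 3 from HFD-F0, so these neighbours did not differ beyond their spread. The RNAs at both ends of the cluster, mt_tRNA-Phe-GAA and mt_tRNA-Leu-TAA, differed more in level per length than the 2 rRNAs did. How far the cloning of fragments depends on their sequence or modified bases was not tested.

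**Figure D1:**
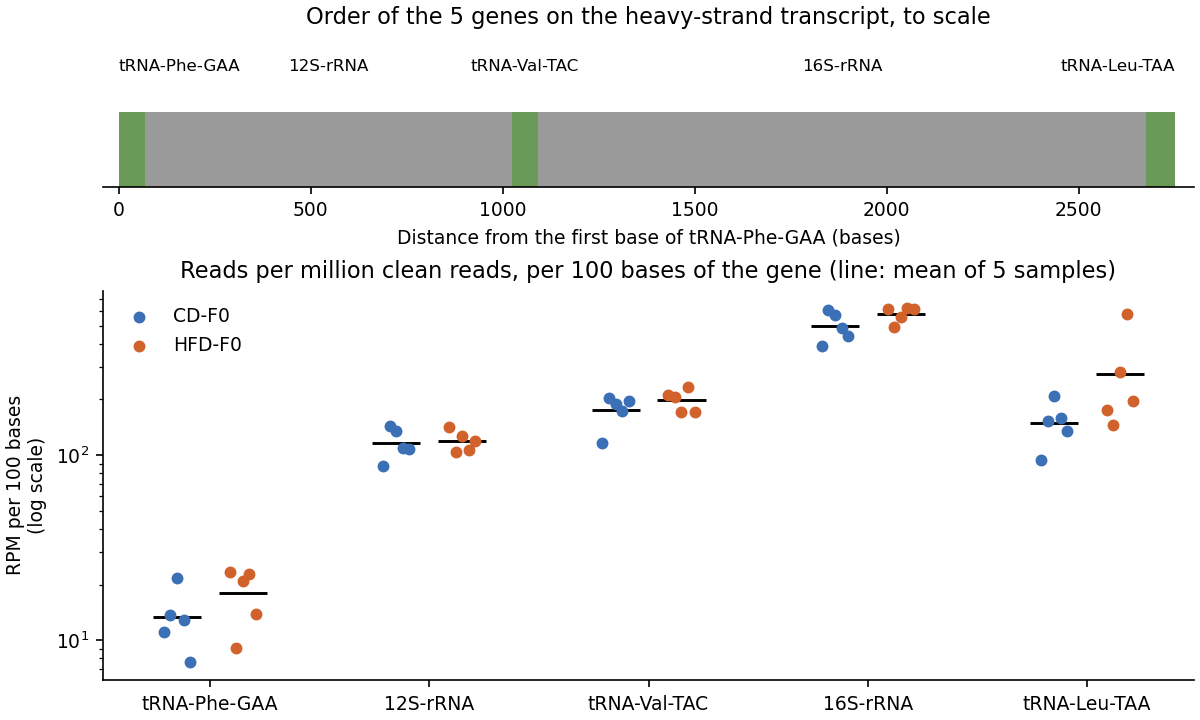
The upper panel maps the 5 genes to scale by distance from the first base of mt_tRNA-Phe-GAA in bases, with tRNAs in green and rRNAs in grey. The lower panel plots, on a log axis, the RPM per 100 bases of each RNA in every sample (points) and the mean of 5 samples (lines), and mt_tRNA-Phe-GAA lies below the other 4 RNAs in both groups.

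The diet comparison asks whether these fragments differed between the sperm of males on either diet. None of the 5 RNAs, each taken as a whole, differed between the groups beyond the spread between samples (two-sided exact permutation tests on RPM, smallest possible p = 0.00794, 5 tests, not adjusted). All 5 means were higher in HFD-F0, by 1.03- to 1.83-fold, and the samples of both groups overlapped for each RNA.

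12S-rRNA, the RNA of the small ribosomal subunit, stood at 830, 1368, 1282, 1041 and 1031 RPM in CD-F0 replicates 1 to 5. In HFD-F0 replicates 1 to 5 it stood at 1356, 992, 1207, 1013 and 1141 RPM. The HFD-F0 samples all lay within the CD-F0 range. The means were 1110 ± 215 and 1142 ± 149 RPM (SD, n = 5), a fold of 1.03 (exact permutation p = 0.794). Without CD-F0 replicate 1, the lowest, the fold was 0.967, and without the 3 libraries under 70% it was 0.862, so the direction depended on the samples.

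16S-rRNA, the RNA of the large subunit, stood at 6165, 9560, 9008, 7721 and 6981 RPM in CD-F0. In HFD-F0 it stood at 9767, 7800, 8805, 9821 and 9778 RPM. HFD-F0 replicates 1, 4 and 5 were above every CD-F0 sample, and the other two lay within the CD-F0 range. The means were 7887 ± 1403 and 9194 ± 888 RPM (SD, n = 5), a fold of 1.17 (exact permutation p = 0.0873). CD-F0 replicates 1, 4 and 5, which are the lowest for this RNA, are the libraries under 70% genome-matched, and without them the fold was 0.990. With CD-F0 replicate 2 left out instead, it was 1.23 (exact permutation p = 0.0476).

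mt_tRNA-Phe-GAA, the first RNA of the cluster and the least frequent, stood at 7.53, 9.37, 14.8, 8.80 and 5.17 RPM in CD-F0. In HFD-F0 it stood at 15.8, 6.21, 14.3, 15.6 and 9.47 RPM. HFD-F0 replicates 1 and 4 were above every CD-F0 sample and replicate 2 was near the lowest of them. The means were 9.14 ± 3.57 and 12.3 ± 4.25 RPM (SD, n = 5), a fold of 1.34 (exact permutation p = 0.246), which rests on 162 to 507 reads per sample. Without the 3 libraries under 70% the fold was 1.01.

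mt_tRNA-Val-TAC, which lies between the rRNAs, stood at 80.4, 139.9, 131, 119 and 134.9 RPM in CD-F0. In HFD-F0 it stood at 146.6, 143.003, 118, 161 and 119 RPM. HFD-F0 replicates 1, 2 and 4 were above every CD-F0 sample, and CD-F0 replicate 1 was the lowest of all 10. The means were 121 ± 23.97 and 138 ± 18.8 RPM (SD, n = 5), a fold of 1.14 (exact permutation p = 0.286). Without the 3 libraries under 70% it was 1.02.

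mt_tRNA-Leu-TAA, which follows 16S-rRNA, had the highest fold of the 5. It stood at 70.2, 114, 156, 119 and 102 RPM in CD-F0 and at 131, 109, 210, 431 and 147 RPM in HFD-F0. HFD-F0 replicates 3 and 4 were above every CD-F0 sample, and replicate 4 stood far above the other samples. The means were 112 ± 31.1 and 205.5 ± 131 RPM (SD, n = 5), a fold of 1.83 (exact permutation p = 0.103). Without HFD-F0 replicate 4 the fold was 1.33, without the 3 libraries under 70% it was 1.52, and without HFD-F0 replicate 2, the lowest of its group, it was 2.05 (exact permutation p = 0.0238).

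**Figure D2:**
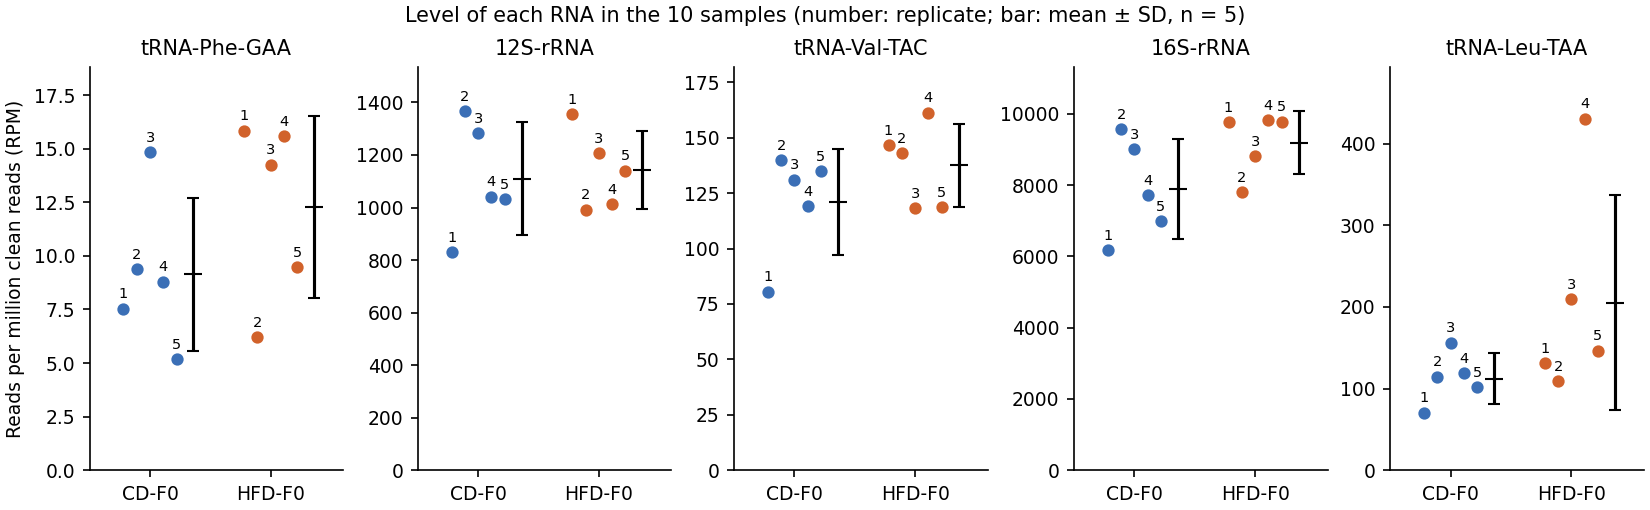
Each panel plots the RPM of 1 RNA in the 5 CD-F0 (blue) and 5 HFD-F0 (orange) samples, numbered by replicate, with the mean ± SD (n = 5) as a bar. The groups overlap in all 5 panels, and HFD-F0 replicate 4 stands alone for mt_tRNA-Leu-TAA at 431 RPM.

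The tRNAs differed in which part of them the reads came from. mt_tRNA-Leu-TAA was read almost wholly as a 5′ end, mt_tRNA-Val-TAC mostly as internal fragments, and mt_tRNA-Phe-GAA was mixed. In mt_tRNA-Leu-TAA, 5′ ends were 91.9% ± 1.21 of the reads in CD-F0 and 92.8% ± 1.26 in HFD-F0 (SD, n = 5), the narrowest spread of a 5′ share among the 3 tRNAs. None of the 12 shares of parts differed between the diets (two-sided exact permutation tests, not adjusted, smallest p = 0.0556, n = 5 per group). Left-out samples moved 7 of them past 0.05, HFD-F0 replicate 2 alone 4, among them the 5′ share of mt_tRNA-Val-TAC (exact permutation p = 0.0238).

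In mt_tRNA-Val-TAC, 5′ ends made up 12.9%, 27.1%, 22.05%, 21.5% and 20.9% of the reads in CD-F0. In HFD-F0 they made up 34.3%, 21.7%, 36.4%, 24.03% and 34.9%. HFD-F0 replicates 1, 3 and 5 were above every CD-F0 sample, while replicates 2 and 4 lay within the CD-F0 range. The mean share was 20.9% ± 5.07 in CD-F0 and 30.3% ± 6.86 in HFD-F0 (SD, n = 5, exact permutation p = 0.0556). The internal share stood opposite, at 79.0% ± 5.003 and 69.5% ± 6.85 (SD, n = 5, exact permutation p = 0.0556), as the 2 parts hold nearly all reads. Without the 3 libraries under 70% the 5′ share was higher in HFD-F0 by 5.71 percentage points, against 9.38 with all 10 samples.

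In RPM, the 5′ ends of the same tRNA stood at 10.4, 37.9, 28.9, 25.6 and 28.2 RPM in CD-F0 and at 50.2, 31.0, 43.0, 38.7 and 41.4 RPM in HFD-F0. All HFD-F0 samples but replicate 2 were above every CD-F0 sample. The internal reads stood at 69.8, 102, 102, 93.5 and 106 RPM in CD-F0 and at 95.9, 112, 74.9, 122 and 76.8 RPM in HFD-F0. HFD-F0 replicates 2 and 4 were above every CD-F0 sample and the other 3 lay within the CD-F0 range. In the edgeR fit the log2 fold change was 0.56 (SE 0.26, adjusted p = 0.470) for the 5′ ends and -0.06 (SE 0.19) for the internal reads, and without the 3 libraries under 70% that of the 5′ ends was 0.26. Whether these parts differ in their fold was tested only through the shares above.

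In mt_tRNA-Phe-GAA, 5′ ends made up 72.5%, 88.9%, 82.6%, 86.3% and 53.7% of the reads in CD-F0. In HFD-F0 they made up 81.7%, 64.3%, 67.5%, 23.1% and 51.4%. HFD-F0 replicates 4 and 5 were below every CD-F0 sample. The mean share was 76.8% ± 14.3 in CD-F0 and 57.6% ± 22.1 in HFD-F0 (SD, n = 5, exact permutation p = 0.135). Without the 3 libraries under 70% the difference, HFD-F0 minus CD-F0, was -28.1 percentage points, against -19.2 with all 10 samples. The 5′ ends themselves were at 7.28 ± 3.52 RPM in CD-F0 and 7.01 ± 4.10 in HFD-F0. The internal reads stood at 2.0045, 0.317, 2.26, 1.08 and 2.24 RPM in CD-F0 and at 2.31, 2.18, 3.17, 9.33 and 3.86 RPM in HFD-F0. Again all HFD-F0 samples but replicate 2 were above every CD-F0 sample, and replicate 4 stood far above the rest of its group.

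In mt_tRNA-Leu-TAA both large parts followed the total. Its 5′ ends stood at 65.1, 105, 145.5, 107 and 93.5 RPM in CD-F0 and at 122, 101, 197, 400.0 and 133.1 RPM in HFD-F0. Its internal reads stood at 5.09, 9.53, 10.8, 11.9 and 7.86 RPM in CD-F0 and at 8.19, 7.46, 11.996, 30.3 and 13.3 RPM in HFD-F0. HFD-F0 replicate 4 was highest for both parts.

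CCA ends, which carry the 3 bases that are added to a tRNA after it is cut free, and other 3′ ends were rare. For mt_tRNA-Phe-GAA, CCA ends ranged from 0.0318 to 0.602 RPM in CD-F0 and from 0 to 2.41 RPM in HFD-F0, with at most 77 reads. For mt_tRNA-Val-TAC they had at most 24 reads per sample, and for mt_tRNA-Leu-TAA at most 8. Leucine CCA ends were at 0 in 4 CD-F0 samples and in no HFD-F0 sample. The 3′ ends had at most 16, 2 and 10 reads per sample in mt_tRNA-Phe-GAA, mt_tRNA-Val-TAC and mt_tRNA-Leu-TAA. Those of mt_tRNA-Val-TAC were at 0 in all CD-F0 samples, which allows up to 0.0986 RPM per sample (3 reads, counting error only), and HFD-F0 reached no more than 0.0677 RPM. Levels so low cannot be told from 0 at this depth.

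**Figure D3:**
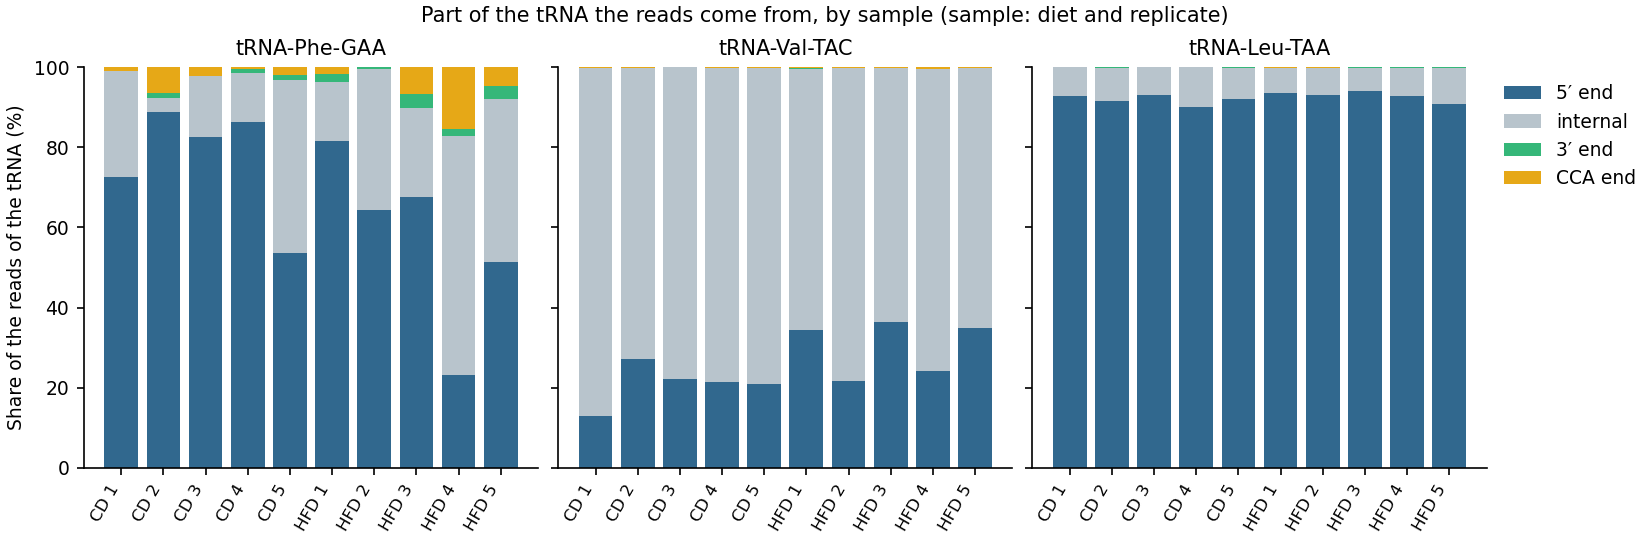
Stacked bars give the share of the reads of each tRNA, in percent, that come from its 5′ end, inner part, 3′ end and CCA end in the 10 samples, labelled by diet and replicate. The 5′ end holds 90.0% to 94.1% of mt_tRNA-Leu-TAA in every sample, 12.9% to 36.4% of mt_tRNA-Val-TAC, and 23.1% to 88.9% of mt_tRNA-Phe-GAA.

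In the edgeR quasi-likelihood test across all features, with the study's own thresholds (an unadjusted p of at most 0.05 and an absolute log2 fold change of at least 1), 1 of the 9 member features that passed the filter on low counts was past both. The background in either direction was 3.69% of the 814 features tested, and 2.09% were higher in HFD-F0. The other 5 features, the 3′ ends of all 3 tRNAs and the CCA ends of mt_tRNA-Val-TAC and mt_tRNA-Leu-TAA, were not tested. The 1 feature was the internal part of mt_tRNA-Phe-GAA, higher in HFD-F0 with a log2 fold change of 1.32 (SE 0.55, edgeR's adjusted p = 0.430 by Benjamini-Hochberg). Without HFD-F0 replicate 4 its log2 fold change was 0.73 and it was no longer past the thresholds, nor was it without CD-F0 replicate 2 or replicate 4.

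By the threshold on the unadjusted p alone, 2 of the 9 passed, against 10.2% of all features tested. The second was the 5′ end of mt_tRNA-Leu-TAA, with a log2 fold change of 0.82 (SE 0.37, adjusted p = 0.442). Without HFD-F0 replicate 4 its log2 fold change was 0.32, and without the 3 libraries under 70% it was 0.60. With those 3 left out, 0 members were past the thresholds, and internal mt_tRNA-Phe-GAA stood at 1.69. After adjustment, 0 members passed by edgeR, and also 0 by DESeq2, which gave 3 at an unadjusted p of at most 0.05. Over all features 0.123% passed after adjustment in edgeR and 1.6% in DESeq2, which found 12% at an unadjusted p of at most 0.05. No member had groups that did not overlap in RPM, against 3.93% of all features tested.

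The 5′ end of mt_tRNA-Val-TAC, at 0.56, was given above, and the remaining tested members did not pass either threshold on p. The log2 fold change was -0.05 (SE 0.13) for 12S-rRNA and 0.13 (SE 0.13) for 16S-rRNA. It was -0.19 (SE 0.39) for the 5′ ends and 1.82 (SE 0.98, adjusted p = 0.532) for the CCA ends of mt_tRNA-Phe-GAA, and 0.60 (SE 0.39) for internal mt_tRNA-Leu-TAA. Those CCA ends came past the thresholds without CD-F0 replicate 2 (log2 fold change 2.52) or HFD-F0 replicate 2 (2.14). Their log2 fold change was 0.83 without HFD-F0 replicate 4 and also 0.83 without the 3 libraries under 70%. Without these 3, that of the 5′ ends of the same tRNA was -0.625. With each tRNA counted as 1 total, the log2 fold change was 0.33 (SE 0.29) for mt_tRNA-Phe-GAA, 0.12 (SE 0.17) for mt_tRNA-Val-TAC and 0.83 (SE 0.38, adjusted p = 0.409) for mt_tRNA-Leu-TAA. The unadjusted edgeR p of the mt_tRNA-Leu-TAA total was 0.0488, unlike the exact permutation test on its RPM, which did not pass 0.05.

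The parts of the other 19 mitochondrial tRNAs, which lie elsewhere on the circle, are given for comparison. Of their 46 tested features, 10 were past the thresholds and higher in HFD-F0 and 0 were lower. Their median log2 fold change was 0.80, against 0.56 over the 9 tested members and -0.01 over all 814. The 9 members include the 2 rRNAs, which lie near 0, so the sets are not alike. As totals, all 19 had a log2 fold change above 0, with a median of 0.65 and a range from 0.16 to 1.70. The value for mt_tRNA-Val-TAC lay below that whole range.

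**Figure D4:**
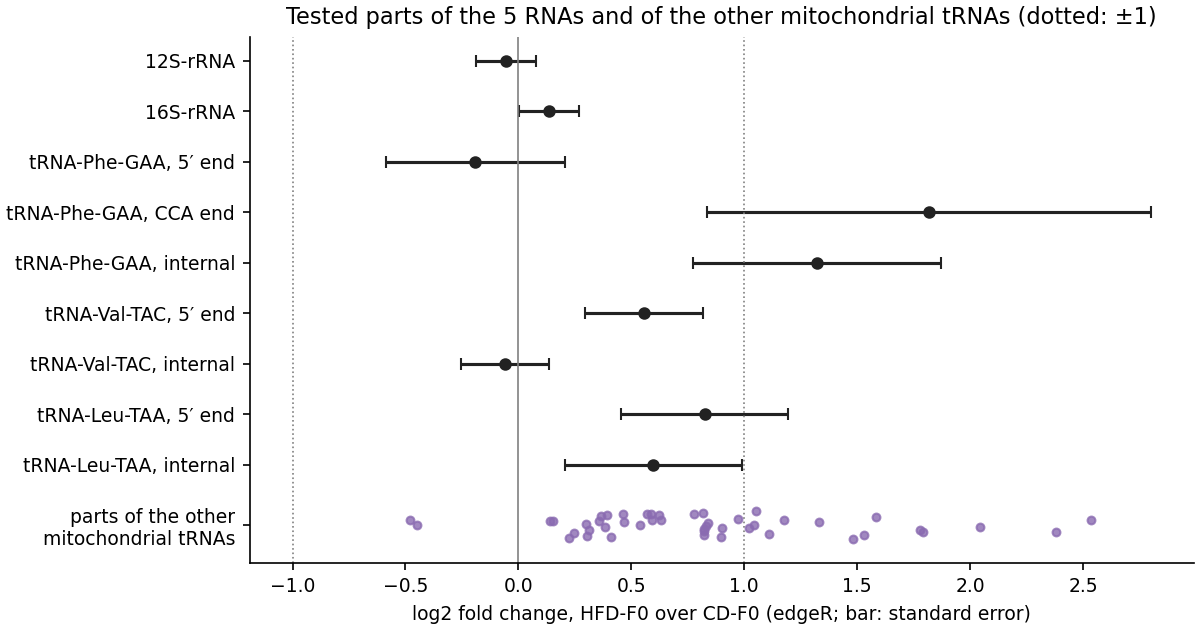
Points give the edgeR log2 fold change of HFD-F0 over CD-F0 for the 9 tested member features, with the standard error as a bar, and in the lowest line for the 46 tested parts of the other mitochondrial tRNAs. Both rRNAs and internal mt_tRNA-Val-TAC lie next to 0, and 44 of the 46 other parts lie above it.

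Ratios between members of 1 sample do not depend on the total reads. Mitochondrial rRNA reads that are listed under neither 12S-rRNA nor 16S-rRNA, given below, are in none of these ratios. They averaged 4342 RPM in CD-F0 and 5694 in HFD-F0, more than 12S-rRNA itself. The ratios with rRNA thus hold only for reads listed by name. Of 11 ratios tested on the log2 scale (two-sided exact permutation tests, not adjusted), 1 differed between the diets at p ≤ 0.05, that of 12S-rRNA to 16S-rRNA. Per 1000 reads of 16S-rRNA there were 134.7, 143.1, 142.3, 134.8 and 148 reads of 12S-rRNA in CD-F0. In HFD-F0 there were 139, 127, 137, 103 and 117. The CD-F0 samples lay close together, and HFD-F0 replicates 2, 4 and 5 lay below all of them. The means were 140.5 ± 5.64 and 125 ± 14.9 reads (SD, n = 5), and the ratio in HFD-F0 was 0.882 of that in CD-F0 (exact permutation p = 0.0476).

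The ratio stayed lower in HFD-F0 with any 1 sample left out, at 0.857 to 0.923, but its side of the threshold depended on the samples. Leaving out any 1 CD-F0 sample, or HFD-F0 replicate 2, 4 or 5, kept the direction but gave an exact permutation p between 0.0556 and 0.119. Without the 3 libraries under 70% the ratio was 0.868 (exact permutation p = 0.1429). Both rRNAs moved together from sample to sample: after each group's mean was taken off, Pearson's r of log2 RPM was 0.84 over the 10 samples, which share library depth in both measures.

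The 3 tRNAs summed gave 22.6, 24.1, 29.4, 28.2 and 30.1 reads per 1000 reads of both rRNAs in CD-F0. In HFD-F0 they gave 26.4, 29.4, 34.2, 56.1 and 25.2. HFD-F0 replicates 3 and 4 were above every CD-F0 sample, replicate 4 by far, and the other 3 lay within the CD-F0 range. The means were 26.9 ± 3.33 and 34.2 ± 12.7 reads (SD, n = 5). The fold, taken from the mean log2 ratios and turned back into a plain ratio, was 1.22 (exact permutation p = 0.230). It was 1.07 without HFD-F0 replicate 4 and 1.23 without the 3 libraries under 70%.

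Each tRNA was also set against the rRNA it adjoins. mt_tRNA-Phe-GAA gave 8.19 ± 2.45 reads per 1000 reads of 12S-rRNA in CD-F0 and 10.7 ± 3.52 in HFD-F0 (SD, n = 5, exact permutation p = 0.286). Its fold, taken in the same way as a plain ratio, was 1.29, and 1.15 without the 3 libraries under 70%. mt_tRNA-Val-TAC gave 109 ± 13.6 and 123 ± 27.2 reads per 1000 of 12S-rRNA (exact permutation p = 0.349, n = 5 per group). Against 16S-rRNA, its neighbour on the other side, it gave 15.4 ± 2.36 and 15.1 ± 2.44 reads (exact permutation p = 0.817, n = 5 per group). The samples ran from 13.0 to 19.3 reads in CD-F0 and from 12.1 to 18.3 in HFD-F0, so the groups overlapped almost wholly. mt_tRNA-Leu-TAA gave 14.1 ± 2.47 reads per 1000 of 16S-rRNA in CD-F0 and 22.02 ± 12.9 in HFD-F0 (exact permutation p = 0.206, n = 5 per group), where replicate 4 stood at 43.9.

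The 3 tRNAs were then set against the other 19 mitochondrial tRNAs. Those summed to 1860, 3909, 4127, 3199 and 3586 RPM in CD-F0 and to 4773, 5148, 5009, 5474 and 5126 RPM in HFD-F0, without overlap, a fold of 1.53 and of 1.27 without the 3 libraries under 70%. Per 1000 of their reads there were 85.0, 67.4, 73.2, 77.2 and 67.4 reads of the 3 tRNAs in CD-F0, and 61.5, 50.2, 68.3, 111 and 53.6 in HFD-F0. HFD-F0 replicates 1, 2 and 5 lay below every CD-F0 sample, replicate 3 lay within their range and replicate 4 above it. With all 10 samples the ratio in HFD-F0 was 0.895 of that in CD-F0 (exact permutation p = 0.484), without the 3 libraries under 70% it was 0.939, and without HFD-F0 replicate 4 it was 0.786 (exact permutation p = 0.0238). This call therefore depends on 1 library.

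Of all mitochondrial tRNA reads, mt_tRNA-Val-TAC held 2.96% to 3.99% in CD-F0 and 2.20% to 2.89% in HFD-F0. The ranges did not overlap, which was noticed after the values were seen and is given with no test. mt_tRNA-Leu-TAA held 2.65% to 3.53% in CD-F0 and 2.02% to 7.08% in HFD-F0, and mt_tRNA-Phe-GAA 0.135% to 0.373% and 0.115% to 0.313%. Among the 3 tRNAs themselves, the share of mt_tRNA-Leu-TAA ran from 42.0% to 51.7% in CD-F0 and from 42.2% to 70.9% in HFD-F0.

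Both mitochondrial rRNAs together gave 19.3, 45.4, 42.1, 29.6 and 29.9 reads per 1000 reads of the 6 other rRNA species listed in the files. In HFD-F0 they gave 38.6, 37.6, 40.3, 44.6 and 46.7. The HFD-F0 samples lay close together at the upper end of a wide CD-F0 range. The fold was 1.30 (exact permutation p = 0.135, n = 5 per group), and 1.42 without CD-F0 replicate 2 (exact permutation p = 0.0397). The 3 low CD-F0 samples are those under 70% genome-matched, and without them the fold was 0.948.

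**Figure D5:**
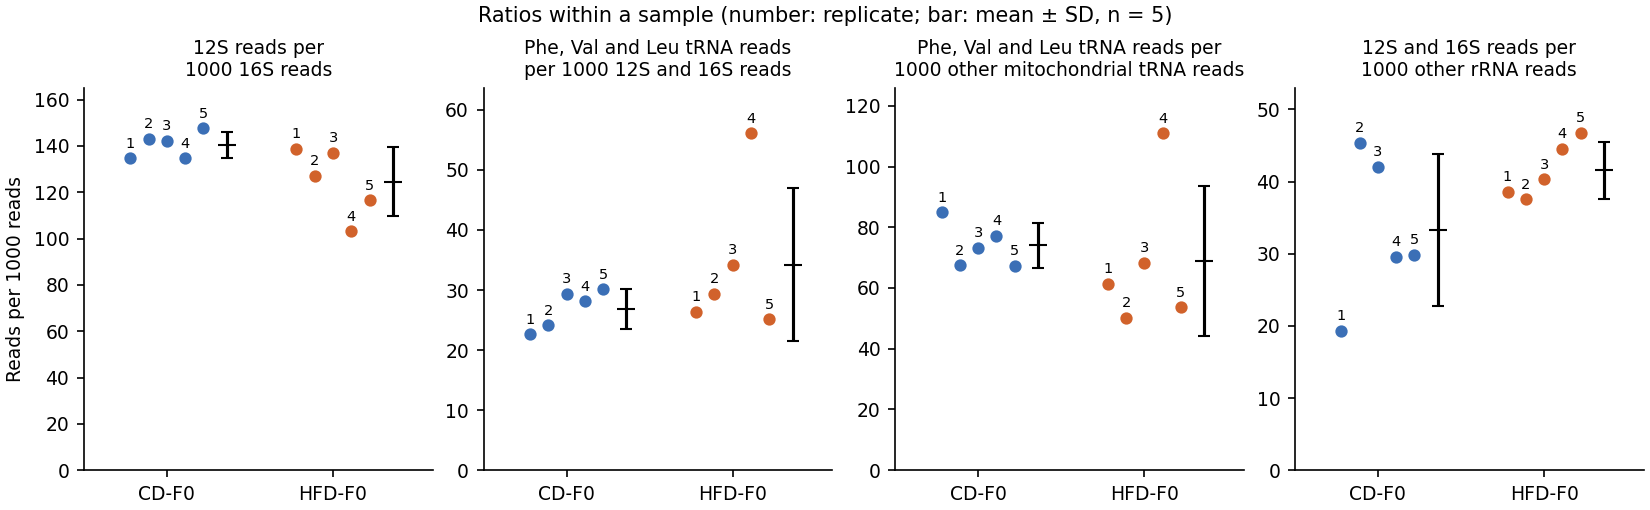
The 4 panels plot, for every sample by replicate number with the mean ± SD (n = 5), the reads of 1 set of RNAs per 1000 reads of another. The ratio of 12S-rRNA to 16S-rRNA is lower in HFD-F0 replicates 2, 4 and 5 than in any CD-F0 sample, and HFD-F0 replicate 4 is highest in both ratios of the 3 tRNAs.

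A further set of reads is listed under the Ensembl class Mt_rRNA, apart from 12S-rRNA and 16S-rRNA, and was looked at after the data were seen. They stood at 4342 ± 769 RPM in CD-F0 and 5694 ± 1003 in HFD-F0 (SD, n = 5), a fold of 1.31 (exact permutation p = 0.0476), and 4 of 5 HFD-F0 samples were above every CD-F0 sample. The fold was 1.23 to 1.395 with 1 sample left out and passed 0.05 without CD-F0 replicate 2 or HFD-F0 replicate 2 only, and without the 3 libraries under 70% it was 1.17 (exact permutation p = 0.381). They made up 32.6% ± 3.25 and 35.4% ± 3.43 of all mitochondrial rRNA reads. With them added, all mitochondrial rRNA fragments were 1.20-fold the CD-F0 level in HFD-F0 (exact permutation p = 0.0714, n = 5 per group), and 1.04-fold without the 3 libraries under 70%. Leaving out CD-F0 replicate 2 or HFD-F0 replicate 2 gave 1.27 and 1.26 (exact permutation p = 0.0317 and 0.0159). Which of the rRNAs they come from is not given in the files.

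Few of the members' reads were listed without a match to the genome. For 16S-rRNA there were 0 such reads in every sample. If unmatched reads were listed for it, this allows a share of up to 0.0016% of its reads (3 reads, counting error only). Entries not listed also count as 0, so this value cannot be set against that of 12S-rRNA. For 12S-rRNA there were 86 to 236, and their share was 0.325% ± 0.102 in CD-F0 and 0.490% ± 0.0905 in HFD-F0 (SD, n = 5, exact permutation p = 0.0397, 1 of 4 such tests at p ≤ 0.05). HFD-F0 had 3 samples above every CD-F0 sample. The share no longer passed when CD-F0 replicate 2, 3 or 5 or HFD-F0 replicate 1, 3 or 4 was left out. Without the 3 libraries under 70% it was higher in HFD-F0 by 0.234 percentage points, against 0.165 with all samples. Without them the exact permutation p was 0.0476, the smallest possible with CD-F0 replicates 2 and 3 alone. The tRNAs had at most 4, 20 and 37 unmatched reads per sample, for mt_tRNA-Phe-GAA, mt_tRNA-Val-TAC and mt_tRNA-Leu-TAA.

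The features whose levels were most like those of each member were found by Pearson's r of log2(RPM + 0.5), with each group's mean taken off, over the 10 samples and 386 features with a mean of at least 10 RPM. All levels share the library's depth, so r is a description. For mt_tRNA-Leu-TAA the nearest 3 were other mitochondrial tRNAs, mt_tRNA-Glu-TTC (r = 0.89), mt_tRNA-Ser-GCT (0.85) and mt_tRNA-Pro-TGG (0.81). For mt_tRNA-Val-TAC they were miR-26b (0.94), mt_tRNA-Leu-TAG (0.89), the other leucine tRNA, and miR-98 (0.85). For mt_tRNA-Phe-GAA they were miR-411 (0.81), mt_tRNA-Glu-TTC (0.77) and miR-181a-2 (0.77). For 12S-rRNA they were miR-883a (0.92), the Ensembl class sense_intronic (0.91) and miR-669o (0.90), and for 16S-rRNA the Ensembl classes processed_transcript (0.87), antisense (0.81) and sense_intronic (0.78).

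Between members, r was highest for the rRNA pair and lowest for mt_tRNA-Phe-GAA with mt_tRNA-Val-TAC (0.17) and 12S-rRNA with mt_tRNA-Leu-TAA (0.19). Being neighbours on the genome did not order the values: 16S-rRNA had r = 0.60 with mt_tRNA-Val-TAC and 0.54 with mt_tRNA-Leu-TAA, which adjoin it, and 0.66 with mt_tRNA-Phe-GAA, which does not.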

How the data were processed

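Small RNA from mature sperm, cut from a gel at 18 to 30 nt, was sequenced by the authors. They aligned the clean reads with SPORTS and Bowtie (1 mismatch allowed, versions not given in the sources used here) to the mouse genome (mm10 per the labels) and to RNA sets. The deposited values are estimated counts of reads per RNA class, without normalization, in which a read that fits several entries is split between them. Use of the molecular identifiers in the adapters is not stated, so intervals and floors cover counting error only.

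Genome-matched and unmatched reads were summed, entries not listed were taken as 0, and levels were divided by the clean reads (RPM). Counts were rounded and tested with edgeR 4.0.16 (TMM, filterByExpr, quasi-likelihood; R 4.3.3) over 814 of 1470 features. Single values were tested by two-sided exact permutation. DESeq2 1.42.0, other filters, denominators, left-out samples and a replicate block were alternatives. All members were named, together with the 3 features most like each. The members and lists were chosen with earlier results of these data known. No 2 libraries agreed within sampling noise over 45 pairs. The edgeR step was tested on simulated data. Gene positions and tRNA sequences are from GENCODE M21 (GRCm38).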

Additional observations from a re-analysis of the deposited data

Results flagged for a closer look

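HFD-F0 replicate 4 stood apart from the other 4 samples of its group in 2 levels. Internal reads of mt_tRNA-Phe-GAA were at 9.33 RPM there and at 2.18 to 3.86 RPM in the others, and internal reads of mt_tRNA-Leu-TAA were at 30.3 RPM there and at 7.46 to 13.3 RPM in the others. In CD-F0 replicate 3, CCA ends of mt_tRNA-Leu-TAA were at 0.0645 RPM (2 reads), or 0.0413% of the reads of that tRNA. The other 4 samples of the group were at 0. The flags for the level and the share rest on the same 2 reads, which cannot be told from 0 at this depth. In CD-F0 replicate 1, the share of mt_tRNA-Leu-TAA reads without a genome match was 0.234%, and it was at most 0.0554% in the others. These are 5 flags among 90 groups checked by the gap to the nearest sample, and chance flags about 1 in 20 groups.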

How the results depend on the processing

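Of 615 values recomputed under alternatives, 529 kept their direction and side of the threshold, 26 came to pass it, 40 no longer passed and 20 changed direction; the cause was not tested. The fold of 12S-rRNA was 0.986 over genome-matched reads, 0.947 over miRNA reads and 0.967 to 1.09 with 1 sample left out. Without the 3 libraries under 70% genome-matched, added after seeing the data, it was 0.862, that of 16S-rRNA 0.990 (log2 -0.038 in edgeR), of mitochondrial to other rRNA 0.948, of 12S-rRNA to 16S-rRNA 0.868, and of mt_tRNA-Val-TAC to both rRNAs 1.04 and to 16S-rRNA 1.02, and 0 members passed the thresholds. With clean reads as library size, the log2 fold change of 12S-rRNA was 0.040 and of internal mt_tRNA-Val-TAC 0.022. With each tRNA as 1 total, 0 members passed. With genome-matched reads only, 1 of 12 part shares passed.

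With 1 sample left out, folds ran from 1.11 to 1.23 for 16S-rRNA, 1.33 to 2.05 for mt_tRNA-Leu-TAA, 0.857 to 0.923 for 12S-rRNA to 16S-rRNA, 0.786 to 0.959 for the 3 tRNAs to the other mitochondrial tRNAs and 1.15 to 1.42 for mitochondrial to other rRNA. Members past the thresholds numbered 0 (without CD-F0 replicate 4 or HFD-F0 replicate 4) to 2, part shares 0 to 4 (4 without HFD-F0 replicate 2), and genome-unmatched shares 0 to 1. The fold of mt_tRNA-Val-TAC to both rRNAs ran from 0.941 to 1.05, and to 16S-rRNA from 0.927 to 1.04, above 1 without CD-F0 replicate 5, HFD-F0 replicate 3 and HFD-F0 replicate 5. The log2 fold change of mt_tRNA-Phe-GAA 5′ ends ran from -0.47 to 0.050 (above 0 without CD-F0 replicate 3), and of internal mt_tRNA-Val-TAC from -0.19 to 0.022 (above 0 without HFD-F0 replicate 3). Over all features, 30 passed the thresholds, against 93 with no filter, 19 with at least 10 counts in every sample and 19 with tRNAs as totals.

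Replicate numbers did not pair the samples: correlations of same-numbered deviations ran from -0.19 to 0.34, and 2 of 5 samples matched their own number best. With the replicate block, 1 member passed the thresholds, the ratio of 12S-rRNA to 16S-rRNA stayed at 0.882 (exact sign-flip p = 0.125, smallest possible 0.0625), and 0 unmatched shares could pass. Depth limits the 3′ and CCA ends.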
